A study of Mus musculus with 8 samples.

Results

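Smooth muscle cells of the young mouse ascending thoracic aorta that lie at the Tnnt2 and Ptprz1 high end of a gene score are described here. The score of a cell was the sum of the log-transformed levels of Tnnt2, Ptprz1, Itih4, Bmp3 and Wif1 minus that of Pln, Mgp, Acan, Tnfrsf11b and Vcam1. The top 25% of the score, 845 of 3378 smooth muscle cells, are called members; the 845 cells of the bottom 25% are called low-score cells, and the 1688 cells between them middle cells. The deposited matrix holds 48467 barcodes in all. These 10 genes chose the cells, so their levels are given as a description, and no test was made between the ends of the score.

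Ascending thoracic aortas came from 3 wild-type mice of 11, 12 and 13 weeks, with no treatment and no other genotype. The deposited hashtag reference ties each hashtag to an age; that it also stands for 1 animal is inferred from the count of 3 mice and is not stated. Members and low-score cells come from the same hashtag samples. The tissue was digested with collagenase and elastase, depleted of dead cells and run on a droplet platform that reads the 3′ end of transcripts. The series lists 4 gene expression libraries and 4 hashtag libraries, and the barcodes of the 1 matrix carry 1 suffix, so a cell cannot be traced to a library. Antibodies that carry a DNA barcode (hashtags) mark the source of a cell, and the 3 barcode sequences are shown because every value per hashtag sample rests on them:
hashtag 1, 11 weeks: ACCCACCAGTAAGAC
hashtag 2, 12 weeks: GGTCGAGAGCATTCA
hashtag 3, 13 weeks: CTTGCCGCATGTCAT

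Medial smooth muscle cells contract through actin and smooth muscle myosin and also build and maintain the elastic and collagenous matrix of the aortic wall. The smooth muscle of the ascending aorta has more than a single embryonic origin, with neural crest and second heart field cells both contributing. Of the genes on the high side of the score, Tnnt2 encodes cardiac troponin T, the tropomyosin-binding subunit of the thin-filament switch of heart muscle; Ptprz1 a receptor-type tyrosine phosphatase best known from glia; Itih4 a heavy chain of the inter-alpha-trypsin inhibitor family; Bmp3 a BMP family member known to oppose BMP signalling; and Wif1 a secreted Wnt inhibitor. On the low side, Pln encodes phospholamban, the inhibitor of the sarcoplasmic calcium pump; Mgp matrix Gla protein, an inhibitor of arterial calcification; Acan the proteoglycan aggrecan; Tnfrsf11b the RANKL decoy receptor osteoprotegerin; and Vcam1 a leukocyte adhesion molecule.

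Most barcodes did not reach the smooth muscle filter. At least 500 genes were detected in 45125 barcodes, and the limit of 10% mitochondrial UMIs (unique molecular identifiers, 1 per counted transcript) left 7154 of them. The limit of fewer than 10 haemoglobin UMIs left 4896, the requirement that Acta2, Tagln and Myh11 make up 1.5% of UMIs left 3736, and the limits on fibroblast, endothelial and leukocyte transcripts left 3378. Members had a median of 8399 UMIs and 8.36% mitochondrial UMIs, and low-score cells had 7834 UMIs and 8.41%. A single hashtag was called in 87, 42 and 72 members and in 81, 62 and 54 low-score cells of hashtag samples 1 to 3. Several hashtags were called in 17.3% of members and 19.2% of low-score cells, and no doublet caller was run. The summed UMIs per hashtag sample were 779550, 371780 and 640034 in members and 687988, 483316 and 440158 in low-score cells, so 1 UMI was worth at most 2.69 CPM (UMIs of a gene scaled to a common total per sum).

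The score had no gap. The upper cut lay at a score of -0.53, with the lowest member at -0.5332 and the next cell below it at -0.5334. Within 0.25 of score there were 85 members just above the cut and 125 middle cells just below it, so the members are the upper end of a continuous range of scores, not a cell type set apart by the data. Members had a median score of 0.663, middle cells of -2.16 and low-score cells of -4.99.

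**Figure D1:**
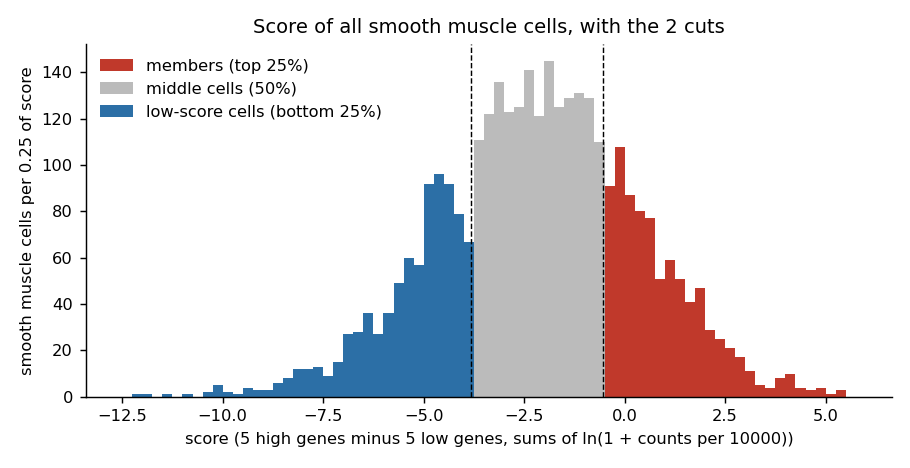
Histogram of the score of the 3378 smooth muscle cells in steps of 0.25 (x axis, score; y axis, number of cells), with the 845 members in red, the 1688 middle cells in grey, the 845 low-score cells in blue and the 2 cuts as dashed lines. The distribution has a single broad top that the middle cells fill, and no gap at either cut.

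Tnnt2, which the rule used, had 378, 371 and 444 CPM in the members of hashtag samples 1 to 3, against 69.8, 35.2 and 43.2 CPM in low-score cells. Ptprz1, also used by the rule, had 489, 525 and 617 CPM in members, against 108, 99.3 and 86.3 CPM in low-score cells. The members of all 3 samples lay above the low-score cells of all 3 samples for both genes. Itih4 ranged from 196 to 226 CPM in members and from 47.7 to 53.8 CPM in low-score cells. Bmp3 ranged from 103 to 129 CPM in members and from 2.07 to 24.99 CPM in low-score cells. Wif1 ranged from 180 to 194 CPM in members and from 13.6 to 46.5 CPM in low-score cells. Among these 5 genes Ptprz1 had the highest level in the members of each sample.

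On the other side of the score, Mgp had 5980, 4973 and 4711 CPM in members, against 24242, 27940 and 16842 CPM in low-score cells. It was the most abundant of the 10 genes at both ends and was detected in every cell of both. Pln ranged from 6.25 to 10.8 CPM in members and from 74.5 to 100 CPM in low-score cells, and Acan from 0 to 5.38 CPM in members and from 52.3 to 55.2 CPM in low-score cells. Tnfrsf11b ranged from 5.38 to 17.2 CPM in members and from 81.8 to 97.2 CPM in low-score cells. Vcam1 ranged from 5.13 to 12.5 CPM in members and from 59.1 to 158 CPM in low-score cells, the widest range of the 4 among low-score cells. Summed over the 3 samples, these 4 genes rested on 3 to 26 UMIs in members. Mylk4, a myosin light chain kinase family member listed as a marker of these cells but left out of the score, had 636, 691 and 795 CPM in members and 571, 441 and 536 CPM in low-score cells. The groups did not overlap for Mylk4, and its mean log2 ratio, after adding 10 CPM to each level, was 0.45 ± 0.26 (SD, n = 3 hashtag samples).

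**Figure D2:**
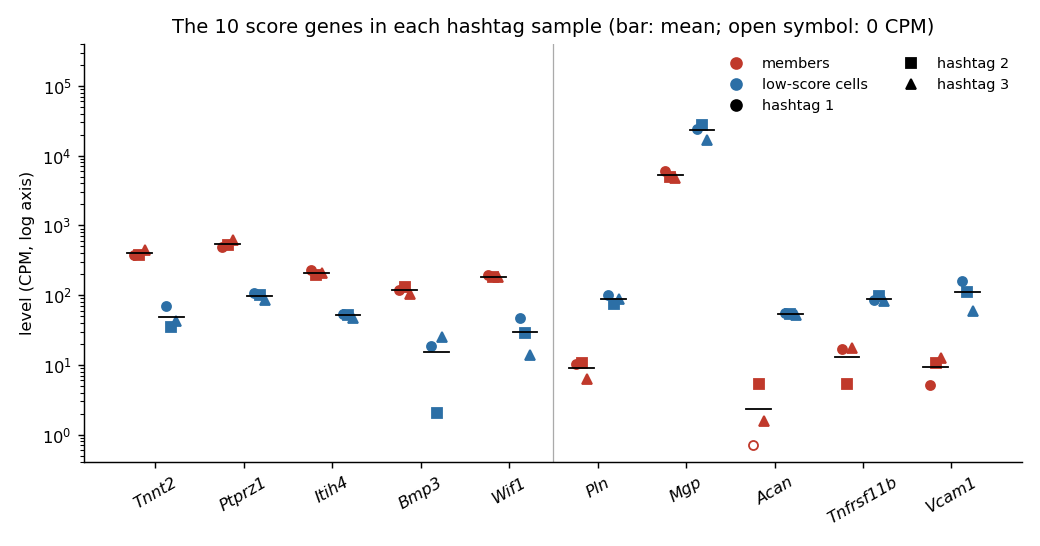
Level of the 10 score genes in CPM (log axis) in each hashtag sample, with members in red on the left of each pair and low-score cells in blue; bars are means of 3 samples and the open symbol marks 0 CPM. The 5 genes left of the grey line are higher and the 5 right of it lower in members, which the selection fixes.

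Each score gene differed less between the ends when it was left out of the score. When Tnnt2 was left out of the score and the top and bottom 25% were drawn again, Tnnt2 had 207, 274 and 253 CPM at the top and 203, 129 and 133 CPM at the bottom, a mean log2 ratio of 0.65 ± 0.54 (SD, n = 3) in place of 2.82 with the full score. In hashtag sample 1 the top and the bottom were then nearly level. Left out in the same way, Ptprz1 kept a ratio of 1.13 ± 0.03, Itih4 of 0.80 ± 0.17, Bmp3 of 1.475 ± 0.86 and Wif1 of 0.65 ± 0.24. The low-side genes kept ratios of -1.11 for Pln, -1.21 for Mgp, -1.50 for Acan, -1.54 for Tnfrsf11b and -1.88 for Vcam1. Between 675 (without Tnnt2) and 822 (without Acan) of the 845 members were also members under the reduced scores. These reduced scores were added after the data were seen.

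Tnnt2 and Ptprz1 marked different shares of the members. A Ptprz1 UMI was found in 92.8% of members and 40.1% of low-score cells, and a Tnnt2 UMI in 55.7% of members and 15.1% of low-score cells. As a background, fibroblast barcodes of the same matrix held a Ptprz1 UMI in 6.86% and a Tnnt2 UMI in 5.74% of 714 cells at a median of 5456.5 UMIs, and endothelial barcodes held them in 10.6% and 8.65% of 104 cells at a median of 5466 UMIs. Both genes were detected in 426 members, Ptprz1 without Tnnt2 in 358, Tnnt2 without Ptprz1 in 45 and neither in 16. The name given to these cells thus holds for their summed level, and 44.3% of the members carried no Tnnt2 UMI. A UMI of all 5 high-side genes was found in 91 members, 10.8% of them, and 732 of the 845 members had 3 or more.

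Across the 3378 smooth muscle cells most pairs of score genes were weakly correlated from cell to cell. Pearson's r of log-transformed levels was 0.06 for Tnnt2 and Ptprz1, 0.16 for Tnnt2 and Bmp3, 0.13 for Bmp3 and Wif1, -0.05 for Tnnt2 and Wif1 and -0.30 for Ptprz1 and Mgp. Low-side pairs with Mgp were at 0.25 for Vcam1, 0.22 for Acan, 0.22 for Pln and 0.11 for Tnfrsf11b. These are correlations of sparse counts in cells of the same libraries and are given as a description only.

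The Tnnt2 signal was concentrated in few members. The 213 members with at least 5 Tnnt2 UMIs, 25.2% of all members, held 82.3% of the Tnnt2 UMIs of the members, and the highest cell had 56. Of the 339 smooth muscle cells with at least 5 Tnnt2 UMIs, 126 were not members and 27 of these were low-score cells. The 213 Tnnt2-rich members were close to the 374 members with 0 Tnnt2 UMIs in depth, with a median of 8780 UMIs in the Tnnt2-rich and 8279.5 UMIs in the Tnnt2-free members, and in mitochondrial share, at 8.22% in the Tnnt2-rich and 8.40% in the Tnnt2-free members. Several hashtags were called in 17.4% of the Tnnt2-rich members and 15.2% of the Tnnt2-free members.

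The 100 bases before the start of Tnnt2 and of Des are shown because both are muscle genes with higher summed levels in members. Outside the rule, Des was the gene with the largest log2 ratio of members over low-score cells. RefSeq places the first of 2 listed Tnnt2 starts behind chr1:135836234-135836333 and the Des start behind chr1:75360192-75360291, both on the plus strand of GRCm38.p6. Capitals mark CATTCC, the core of the M-CAT element, a binding motif of TEAD factors known from cardiac troponin T promoters, which was searched on both strands (CATTCC or GGAATG).
Tnnt2: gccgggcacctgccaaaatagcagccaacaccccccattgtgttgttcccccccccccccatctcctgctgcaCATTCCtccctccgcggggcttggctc
Des: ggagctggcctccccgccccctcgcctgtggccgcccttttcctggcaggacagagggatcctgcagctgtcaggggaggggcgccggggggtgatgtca
The match begins 27 bases before the Tnnt2 start, and the Des window has no match. The same letters occur in 4.71% of the 32851 windows of this length in the table, so the match is a description of the sequence and not a binding site.

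Des, desmin, had 497, 467 and 292 CPM in the Tnnt2-rich members of hashtag samples 1 to 3, against 8.03, 51.1 and 36.6 CPM in the Tnnt2-free members. Every Tnnt2-rich sample lay far above every Tnnt2-free sample. A Des UMI was found in 46.9% of the Tnnt2-rich and 14.4% of the Tnnt2-free members. Pooled over all members, hashtagged or not, Des was at 388 CPM in Tnnt2-rich members, 157 CPM in members with 1 to 4 Tnnt2 UMIs and 66.7 CPM in Tnnt2-free members, and at 29.8 CPM in the low-score cells. The split was chosen after the levels were seen and is a description with no test; the hashtag samples contributed 23, 10 and 18 Tnnt2-rich and 39, 21 and 39 Tnnt2-free members.

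Of 9157 genes with at least 30 UMIs, 14 (0.153%) were at least 2-fold higher in the pooled Tnnt2-rich members and higher in each of the 3 hashtag samples, and 9 (0.0983%) were at least 2-fold lower and lower in each sample. Only Tnnt2 was left out of these counts, so the other score genes and the filter genes could enter them. Psd, a guanine nucleotide exchange factor of the small GTPase Arf6, was at 74.6 CPM in Tnnt2-rich and 9.71 CPM in Tnnt2-free members. Col14a1, a fibril-associated collagen, was at 169 CPM in Tnnt2-rich and 61.7 CPM in Tnnt2-free members. Hand2os1, a long noncoding RNA beside the heart development gene Hand2, was at 99.8 CPM in Tnnt2-rich and 33.2 CPM in Tnnt2-free members, while Hand2 itself was at 108 CPM in Tnnt2-rich and 89.2 CPM in Tnnt2-free members. Whether the counting used strand is not stated, so reads of Hand2os1 and of genes that overlap it may not be told apart. Nkd2, an inhibitor of Wnt signalling, rested on 41 UMIs in Tnnt2-rich and 4 UMIs in Tnnt2-free members.

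Among the 9 lower genes were Fos, Fosb and Egr1, immediate early genes that are switched on rapidly by many stimuli, and Mia, a small secreted protein of cartilage and melanoma. Fos was at 119, 56.9 and 175 CPM in Tnnt2-rich members of hashtag samples 1 to 3 and at 471, 306 and 394 CPM in Tnnt2-free members. Egr1 was at 153, 56.9 and 111 CPM in Tnnt2-rich and at 412, 286 and 220 CPM in Tnnt2-free members, and Fosb at 13.7 CPM in pooled Tnnt2-rich and 53.5 CPM in pooled Tnnt2-free members. Mia was at 13.1 CPM in pooled Tnnt2-rich and 55.4 CPM in pooled Tnnt2-free members. For Fos, Fosb, Egr1 and Mia the groups did not overlap. Abcc9, the regulatory subunit of an ATP-sensitive potassium channel, was at 85.6 CPM in Tnnt2-rich and 198 CPM in Tnnt2-free members, and Etv1, an ETS transcription factor, at 22.1 CPM in Tnnt2-rich and 57.6 CPM in Tnnt2-free members. Wif1, a score gene that is 1 of the 9, was at 113 CPM in Tnnt2-rich and 264 CPM in Tnnt2-free members. Members were selected on a sum that holds both Tnnt2 and Wif1, so their levels within members are not independent of each other.

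Levels of the other 3 high-side score genes overlapped between Tnnt2-rich and Tnnt2-free members. Ptprz1 was at 488 CPM in Tnnt2-rich and 585 CPM in Tnnt2-free members, Bmp3 at 144 CPM in Tnnt2-rich and 132 CPM in Tnnt2-free members, and Itih4 at 201 CPM in Tnnt2-rich and 250 CPM in Tnnt2-free members. On the low side, Tnfrsf11b was at 28.4 CPM in Tnnt2-rich and 11.3 CPM in Tnnt2-free members, Pln at 23.1 CPM in Tnnt2-rich and 10.0 CPM in Tnnt2-free members, and Mgp at 6641 CPM in Tnnt2-rich and 4704 CPM in Tnnt2-free members. These 3 genes were higher in the Tnnt2-rich members of each hashtag sample, and the score joins them to Tnnt2 as it does Wif1. Vcam1, at 15.8 CPM in Tnnt2-rich and 7.51 CPM in Tnnt2-free members, was higher in 2 of 3 samples. Mylk4, the listed marker left out of the score, was lower in the Tnnt2-rich members of each hashtag sample. It had 549, 615 and 706 CPM in Tnnt2-rich and 720, 730 and 836 CPM in Tnnt2-free members. Of the contractile genes used by the filter, Myh11 was nearly level, at 6282 CPM in Tnnt2-rich and 6353 CPM in Tnnt2-free members. Tagln was at 12668 CPM in Tnnt2-rich and 11950 CPM in Tnnt2-free members and slightly higher in each hashtag sample. Smooth muscle markers summed to 50177 CPM in Tnnt2-rich and 48171 CPM in Tnnt2-free members, also higher in each sample. Cardiomyocyte markers, Pln included, summed to 113 CPM in Tnnt2-rich and 98.6 CPM in Tnnt2-free members. Myh6, Myh7, Mybpc3, Myl3, Myl7 and Nppa were at 0 in the Tnnt2-rich members. Fibroblast markers summed to 797 CPM in Tnnt2-rich and 859 CPM in Tnnt2-free members, but some fibroblast genes were higher in the Tnnt2-rich members. Serpinf1 was at 25.7 CPM in Tnnt2-rich and 5.01 CPM in Tnnt2-free members, and Fbln1, fibulin-1, at 29.4 CPM in Tnnt2-rich and 7.20 CPM in Tnnt2-free members, and both are among the 14 genes. Lum was at 24.7 CPM in Tnnt2-rich and 7.83 CPM in Tnnt2-free members and Dcn, which the filter limits, at 62.0 CPM in Tnnt2-rich and 37.3 CPM in Tnnt2-free members, each higher in 2 of 3 samples. Cd34, at 24.7 CPM in Tnnt2-rich and 5.95 CPM in Tnnt2-free members, was higher in 1 of 3. The part of fibroblast transcripts in this split was not tested. With a split at 1 Tnnt2 UMI in place of 5, the log2 ratios kept their signs, at 1.84 for Des, 1.78 for Psd, 0.99 for Col14a1, -0.88 for Fos, -1.16 for Egr1 and -0.61 for Abcc9.

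**Figure D3:**
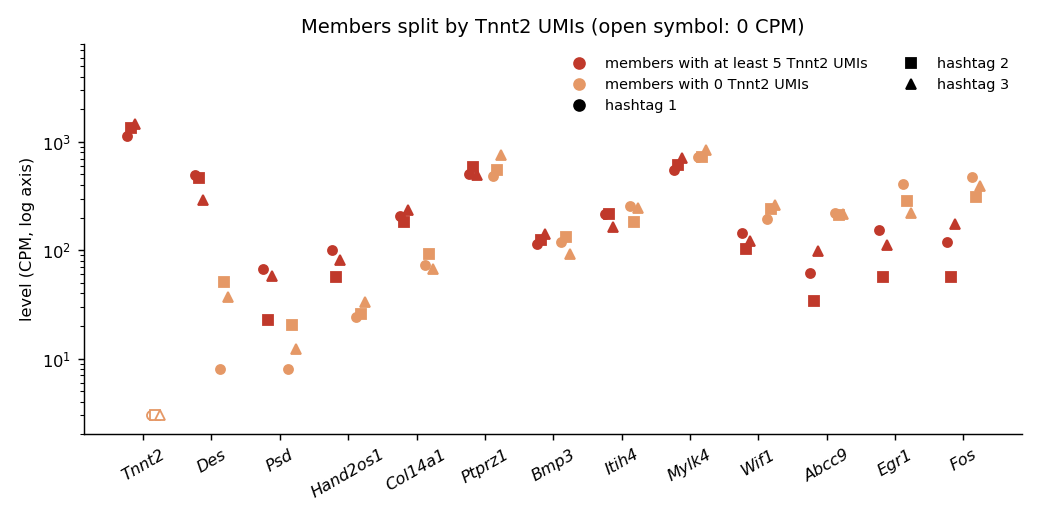
Level in CPM (log axis) of 13 genes in members with at least 5 Tnnt2 UMIs (red, left of each pair) and members with 0 Tnnt2 UMIs (orange), 1 symbol per hashtag sample; open symbols mark 0 CPM. Des, Psd, Hand2os1 and Col14a1 follow Tnnt2 in all 3 samples, and Ptprz1, Bmp3 and Itih4 overlap. Mylk4, Wif1, Abcc9, Egr1 and Fos are higher in the Tnnt2-free members of all 3 samples.

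Outside the genes of the rule, few genes separated members from low-score cells in every hashtag sample. Of 8147 genes with at least 30 UMIs, 24 (0.295%) were at least 1.5-fold higher in the members of each of the 3 hashtag samples and 52 (0.638%) were at least 1.5-fold lower. Left out in turn, hashtag samples 1, 2 and 3 gave 61, 59 and 50 higher and 108, 88 and 96 lower genes. Agreement of only 2 samples was then asked for, among 6390, 7266 and 6949 genes with at least 30 UMIs. The median log2 ratio of all 8147 genes was -0.02. Several hashtags were called in 146 members and 162 low-score cells, and no hashtag in 498 members and 486 low-score cells. Together these cells without a single hashtag (644 members and 648 low-score cells) were not used for the counts of genes. In them, 12 of the 24 higher genes were again at least 1.5-fold higher, against 0.601% of all tested genes, and 34 of the 52 lower genes were at least 1.5-fold lower, against 1.10% of all. All signs were kept among the 52, and 23 were kept among the 24, with Ankrd1 the exception at -0.03.

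Des was the leading gene among the 24. It had 154, 161 and 119 CPM in members and 50.9, 12.4 and 34.1 CPM in low-score cells, a mean log2 ratio of 1.97 ± 0.84 (SD, n = 3), and 2.38 in the cells without a single hashtag. The groups did not overlap, and the lowest level was that of the low-score cells of sample 2. Psd had 38.5, 29.6 and 31.2 CPM in members and 2.91, 2.07 and 15.9 CPM in low-score cells. Mfap4, an elastic fibre protein of the microfibril, had 558, 525 and 683 CPM in members and 273, 226 and 300 CPM in low-score cells, a ratio of 1.12 ± 0.10 (SD, n = 3) and 1.04 in cells without a single hashtag. Fibroblast barcodes held 338 CPM of Mfap4, and the part of fibroblast transcripts in its levels was not tested.

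Among the other higher genes were Ccn5, a matricellular protein that lacks the last domain of its family (1.21 ± 0.08, SD, n = 3), Galnt16, an enzyme that starts mucin-type glycosylation (1.33 ± 0.38), and Mmp17, a membrane-type metalloprotease (0.99 ± 0.30). Xk, a membrane protein first known from red cells, was at 0.92 ± 0.22, and Rasl11a, a small GTPase, at 0.85 ± 0.13. In cells without a single hashtag Ccn5 was at 0.89, Galnt16 at 1.11, Mmp17 at 0.36, Xk at 0.65 and Rasl11a at 0.41. Dsp, desmoplakin, the desmosomal anchor of intermediate filaments, had 281, 180 and 220 CPM in members and 132, 114 and 136 CPM in low-score cells. Transcripts of desmin and of desmoplakin were both higher in the members of each sample. The remaining genes of the 15 with the largest ratios (Chek2, Tpd52l1, Eppk1, Gprasp2, Pcif1, Col19a1 and Npas2) had mean ratios between 0.82 and 1.02 and their highest level in the members of a sample was 61.9 CPM, for Pcif1.

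**Figure D4:**
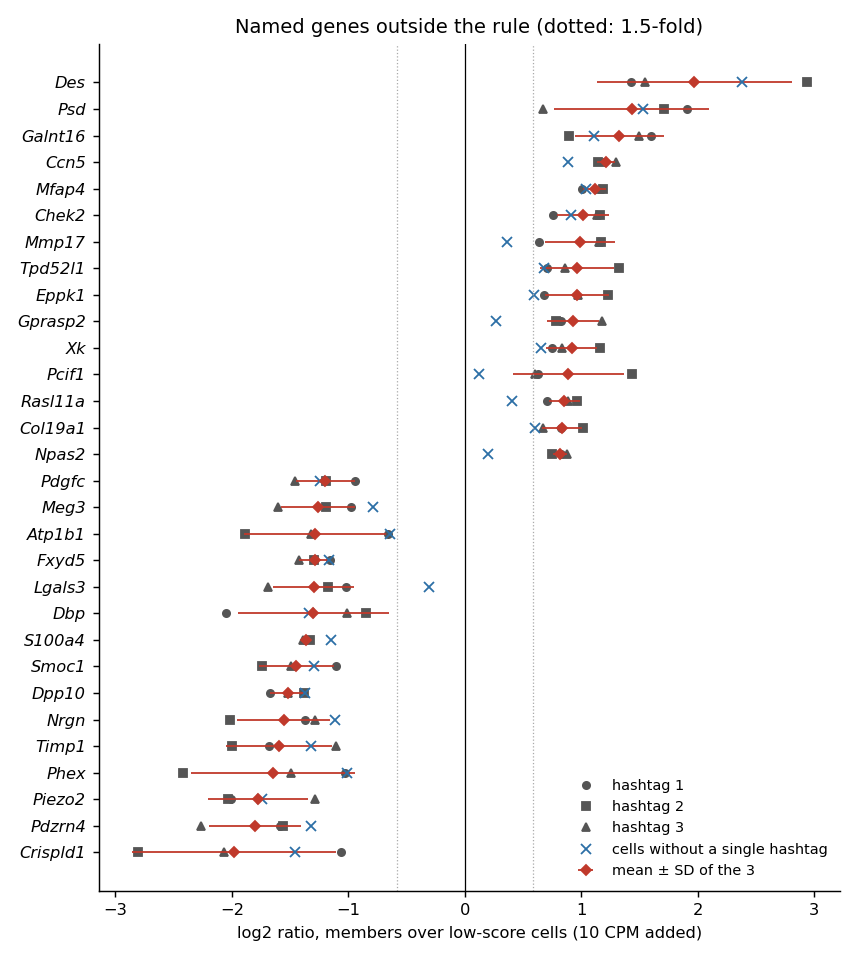
Log2 ratio of members over low-score cells (x axis, 10 CPM added to each level) for the 15 higher and 15 lower genes with the largest mean ratios, 1 grey symbol per hashtag sample, the mean ± SD of the 3 in red and the cells without a single hashtag as a blue cross; dotted lines mark 1.5-fold. Des lies farthest right at 1.97 and Crispld1 farthest left at -1.98, and for Npas2, Pcif1, Gprasp2 and Lgals3, among others, the cross lies nearer 0 than every sample.

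The lower genes included S100a4, Smoc1 and Serpine2 at the higher levels. S100a4, a calcium-binding protein common in migratory cells, had 233, 191 and 228 CPM in members and 621, 497 and 613 CPM in low-score cells, a ratio of -1.37 ± 0.03 (SD, n = 3). Smoc1, a matricellular protein that modulates BMP signalling, had 64.1, 53.8 and 46.9 CPM in members and 150, 203 and 150 CPM in low-score cells. Serpine2, protease nexin-1, an inhibitor of thrombin and plasminogen activators, had 509, 495 and 478 CPM in members and 926, 968 and 872 CPM in low-score cells. For S100a4, Smoc1 and Serpine2 the groups did not overlap.

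Piezo2, a mechanically gated cation channel of sensory neurons, had 7.70, 8.07 and 6.25 CPM in members and 61.0, 64.1 and 29.5 CPM in low-score cells, a ratio of -1.77 ± 0.43 (SD, n = 3) and -1.74 in cells without a single hashtag. The level in members corresponded to 13 UMIs summed over the 3 hashtag samples and was below the 16.0 CPM of fibroblast barcodes. All 845 members, hashtagged or not, held 65 Piezo2 UMIs. Crispld1, a secreted protein, had 20.5, 0 and 14.1 CPM in members and 53.8, 60.0 and 90.9 CPM in low-score cells. Timp1, an inhibitor of metalloproteases, had 8.98, 8.07 and 3.12 CPM in members and 50.9, 62.1 and 18.2 CPM in low-score cells; at 136 CPM it was higher still in fibroblast barcodes.

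Among the other lower genes, Ank, the pyrophosphate exporter that restrains mineral formation, had 42.3, 37.7 and 35.9 CPM in members and 98.8, 108 and 88.6 CPM in low-score cells. Phex, an endopeptidase known from phosphate balance, rested on 1 UMI in members and 38 UMIs in low-score cells of the hashtag samples. Hashtagged or not, all members held 31 and all low-score cells 148 Phex UMIs. Dpp10, an auxiliary subunit of voltage-gated potassium channels, had a ratio of -1.52 ± 0.15, Fxyd5 and Atp1b1, subunits of the sodium pump, of -1.29 ± 0.13 and -1.29 ± 0.61, and Ano1, a calcium-activated chloride channel, of -0.83 ± 0.30 (SD, n = 3 each). Growth factor genes among the 52 were Pdgfc, at -1.20 ± 0.26, and Hbegf, a ligand of the EGF receptor, at -1.18 ± 0.52. The remaining genes of the 15 with the lowest ratios, Pdzrn4, Nrgn, Dbp, Lgals3 and Meg3, lay between -1.80 and -1.26; Lgals3 was at -0.31 in cells without a single hashtag.

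Many contractile apparatus genes were slightly higher in members. Of 25 contractile genes tested outside the filter, 2 (Des and Synpo2) met the 1.5-fold rule upward and 0 downward, and 21 were higher in all 3 samples, beside 15.2% of all tested genes. The median log2 ratio was 0.33, beside -0.02 for all tested genes. Synpo2, an actin-bundling protein of the Z-disc and stress fibres, had 1170, 1011 and 1183 CPM in members and 706, 625 and 711 CPM in low-score cells, a ratio of 0.71 ± 0.02 (SD, n = 3). Ppp1r14a, the inhibitor of myosin phosphatase also called CPI-17, was at 0.65 ± 0.15 and Cnn1, calponin, at 0.54 ± 0.09, neither of which met the rule in every sample. Of the filter genes, Myh11 was at 0.62 ± 0.15, Acta2 at 0.43 ± 0.08 and Tagln at 0.27 ± 0.04. Smtn, smoothelin, was at -0.02 ± 0.15 and Mylk, the kinase of the smooth muscle myosin light chain, at 0.12 ± 0.10.

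**Figure D5:**
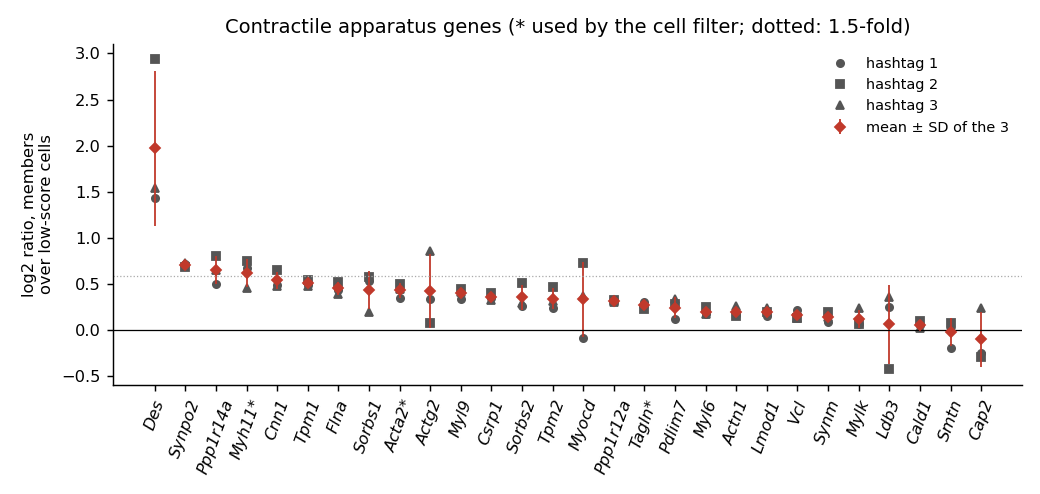
Log2 ratio of members over low-score cells (y axis, 10 CPM added) for the 28 contractile apparatus genes, ordered by the mean; grey symbols are the 3 hashtag samples, red diamonds their mean ± SD, the dotted line 1.5-fold and asterisks mark genes of the cell filter. Des stands apart at 1.97, and most others lie between 0 and the dotted line.

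Few other striated muscle genes differed. Of the list's 36 genes, 7 outside the rule had enough UMIs, and 1 met the rule upward: Ankrd1, a stretch-responsive ankyrin repeat protein, with 28.2, 40.3 and 40.6 CPM in members and 14.5, 20.7 and 15.9 CPM in low-score cells. Ankrd1 was at -0.03 in cells without a single hashtag and at -0.34 with hashtags called by their ratios. Tcap, the titin cap protein telethonin, was among the lower genes, with 148, 212 and 181 CPM in members and 401, 472 and 289 CPM in low-score cells. Myoz2 and Hspb7, both sarcomeric or heart-enriched, were at -0.24 ± 0.25 and -0.22 ± 0.21 (SD, n = 3); Myoz2 was at 0.49 with hashtags called by their ratios and at 0.12 between the top and bottom 10%. The cardiomyocyte markers summed to between 83.4 and 99.99 CPM in members and between 154 and 201 CPM in low-score cells; 10 of the 12 were detected in members, with Myh7 and Mybpc3 at 0. This list holds Pln, which the rule used. In the pooled cells, hashtagged or not, Pln made up 13.1 of 101 CPM in members and 99.3 of 200 CPM in low-score cells. The difference between the sums thus lies mostly in a gene whose direction the selection fixes.

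Extracellular matrix lists were mixed. Of 14 elastic fibre genes tested, Mfap4 met the rule; Fbln5, which tethers elastic fibres to cells, was at -0.41 ± 0.18 and did not. Proteoglycan genes had a median of 0.16 with 0 of 14 meeting the rule, and Ogn, the small proteoglycan osteoglycin, was the most abundant of the 4 named, with 1483, 1743 and 1569 CPM in members and 1147, 972 and 1290 CPM in low-score cells. Of 15 basement membrane genes, 8 were lower and 4 higher in all 3 samples, beside 18.2% and 15.2% of all tested genes, and 0 met the rule, with Col4a4 at -0.75 ± 0.34 and Lama4 at 0.47 ± 0.15. Lamc3, a laminin gamma chain that was not on the list, was lower, at -1.11 ± 0.14 (SD, n = 3). Of 13 matricellular genes, Ccn5 met the rule upward and Smoc1 downward, and of 16 metalloprotease genes Mmp17 met it upward and Timp1 downward.

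Of 17 BMP genes tested, 9 were lower and 2 higher in all 3 samples, beside 18.2% and 15.2% of all tested genes. The median of the BMP genes was -0.44. The 1 gene that met the rule was Id1, a transcriptional target of BMP signalling, with 43.6, 40.3 and 51.6 CPM in members and 109, 106 and 86.3 CPM in low-score cells. Id3, another target, was at -0.71 ± 0.53 and did not meet it, and the receptor gene Bmpr1b was at 0.61 ± 0.04 (SD, n = 3), but at -0.07 when members were set against the middle cells. The BMP antagonist Bmp3 stands in the score and is not counted here. Other lists leaned the same way. Lower in all 3 samples were 8 of 15 IGF, PDGF and FGF, 8 of 16 guidance and neural, 5 of 9 Wnt and 8 of 18 TGF-beta genes. In the same order, 2, 1, 1 and 2 genes of these lists were higher in all 3 samples.

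Wnt genes had a median of -0.39 over 9 tested and 0 met the rule; the agonist Rspo3 was at -1.01 ± 0.42 and the antagonist Sfrp2 at -0.66 ± 0.29 (SD, n = 3), while Sfrp2 was at -0.02 ± 0.89 with hashtags called by their ratios. Calcification and cartilage genes had a median of -0.25 over 6 tested and Ank met the rule, while Sox9, the chondrocyte transcription factor, was at -0.54 ± 0.42. Most of that list, 16 of 25 genes, had too few UMIs. IGF, PDGF and FGF genes had a median of -0.23 over 15 tested, with Pdgfc meeting the rule and Igfbp2 the farthest the other way at 1.21 ± 1.00.

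Igfbp2 varied between hashtag samples. It had 97.5, 188 and 191 CPM in members and 93.0, 43.4 and 52.3 CPM in low-score cells, so the groups did not overlap, yet hashtag sample 1 had nearly equal levels at both ends. With Ptprz1 left out of the score its ratio was -0.35. Guidance and neural genes had a median of -0.21 over 16 tested, and Unc5c, a netrin receptor, met the rule with 74.4, 59.2 and 48.4 CPM in members and 125, 128 and 105 CPM in low-score cells.

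Other lists held no gene that met the rule in either direction. They were the calcium store and channel (18 tested), potassium channel (9), TGF-beta (18), outflow tract and patterning transcription factor (25), Notch (7), fibrillar collagen (11), integrin and adhesion (18), inflammatory activation (13), immediate early and stress (21), RGS and G-protein (13), respiratory chain (23) and caveolae (9) genes. Their medians lay between -0.14 and 0.06. Among YAP and TEAD targets 1 of 14 met the rule, which was Ankrd1 again; Tead1 itself was at 0.42 ± 0.25 (SD, n = 3).

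Levels moved in steps along the whole score and not only at its ends. From the lowest to the highest 10% of the score, Des was at 30.7, 23.1, 49.5, 48.6, 66.4, 81.4, 112, 101, 143 and 250 CPM. Piezo2 ran the other way, at 66.8, 46.2, 49.5, 26.2, 33.2, 26.9, 16.7, 13.9, 10.2 and 7.53 CPM. Both genes were outside the score, and each passed through intermediate levels in the middle cells. Mfap4 was at 239 CPM in the lowest and 655 CPM in the highest 10%, Myh11 at 3691 and 6693 CPM, and S100a4 at 565 and 202 CPM. Timp1 was an exception, at 63.2 CPM in the lowest 10%, 16.8 CPM in the next and 7.53 CPM in the highest.

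To measure levels in UMIs that did not enter the score, each cell's UMIs were divided at random into 2 parts, with the score taken from 1 part and the levels from the other. In the separate part, Tnnt2 had a log2 ratio of 2.30 ± 0.15, Ptprz1 of 1.83 ± 0.12 and Itih4 of 1.32 ± 0.28, against 2.82, 2.36 and 1.85 when all UMIs served both ends (SD, n = 3). Des was at 1.66 ± 0.35, Mfap4 at 1.00 ± 0.20, Synpo2 at 0.59 ± 0.18, S100a4 at -1.26 ± 0.24 and Piezo2 at -1.42 ± 0.61. The members chosen from 1 part included 659 of the 845, and 0 low-score cells were among them.

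Members were found in all 3 hashtag samples. They made up 28.4% of the smooth muscle cells of hashtag sample 1 (11 weeks; 87 of 306 cells, 95% Clopper-Pearson interval 23.4 to 33.8%), 21.1% of sample 2 (12 weeks; 42 of 199, 15.7 to 27.4%) and 28.6% of sample 3 (13 weeks; 72 of 252, 23.1 to 34.6%). The 3 intervals overlap. If each hashtag stands for 1 animal, age and animal cannot be told apart, and no test was made. The mean share was 26.0% ± 4.27 (SD, n = 3), and the intervals cover counting error only.

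Marker sums of the fibroblast, endothelial, pericyte, macrophage and erythroid lists had lower ranges in members, with overlap for the endothelial and pericyte lists. The cell filter limits Dcn, Pecam1, Cdh5, Ptprc and the haemoglobin genes. The fibroblast, endothelial, macrophage and erythroid sums are thus limited in part by the rule at both ends. Smooth muscle markers, 10 of 10 detected and 3 of them used by the filter, summed to between 48522 and 49658 CPM in members and between 36862 and 38290 CPM in low-score cells. Fibroblast markers (9 of 9) summed to between 802 and 858 CPM in members and between 900 and 983 CPM in low-score cells. Endothelial markers (9 of 9 detected) summed to between 212 and 532 CPM in members and between 480 and 981 CPM in low-score cells, and pericyte markers (7 of 7) to between 694 and 844 CPM in members and between 706 and 1068 CPM in low-score cells. Macrophage markers (8 of 8) summed to between 16.7 and 20.3 CPM in members and between 20.7 and 211 CPM in low-score cells, and erythroid markers (5 of 5) to between 412 and 433 CPM in members and between 459 and 468 CPM in low-score cells. Whether these sums have a part in the genes that were lower in members, such as Timp1 and Lgals3, was not tested. Schwann and glia, chondrocyte and adipocyte markers reached at most 15.9 CPM at either end, and mesothelial markers (3 of 5 detected, Wt1 and Lrrn4 at 0) summed to between 0 and 25 CPM in members and between 0 and 2.27 CPM in low-score cells.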

How the data were processed

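The deposited matrix holds raw UMI counts, not normalized, per gene or hashtag and barcode, and, per the file headers, came out of Cell Ranger 6.0.1. The submitters' processing notes list mm10 and Seurat 4.0.5 without saying for which step; no source used here names the gene models. Hashtags were called with HTODemux in Seurat 5.3.0 (centred log ratio per hashtag, quantile 0.99). UMIs were summed per hashtag sample and end of the score and given as CPM; ratios are log2 after adding 10 CPM, taken within each hashtag sample. The call asks for 1.5-fold in each of 3 samples among genes with at least 30 UMIs, genes of the rule left out. Alternatives used TMM factors (edgeR 4.0.16) among others. The call was tested on simulated data. Named genes are the 10 score genes, Mylk4, the filter genes, the 15 highest and 15 lowest genes that met the call, and up to 4 per list of 25 lists; Dsp, Serpine2, Ano1, Hbegf, Tcap, Lamc3, Smtn, Mylk, the clock genes and the genes named for the Tnnt2 split were chosen after their values were seen. The members and lists were chosen with earlier results of these data known. Replicates are the 3 hashtag samples.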

Additional observations from a re-analysis of the deposited data

How the results depend on the processing

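The number of genes that met the rule depended on its settings. The number of genes with at least 30 UMIs also differed between settings and is given with each count. Of 8147 tested genes, a fold of at least 2 gave 3 higher and 12 lower genes, a pseudocount of 1 CPM gave 62 and 124, and 1 of 50 CPM gave 3 and 7. Members against the middle 50% gave 2 higher and 7 lower of 9098 genes, and the top against the bottom 10% gave 33 higher and 85 lower of 5127. With the score on 3000 UMIs per cell there were 15 higher and 32 lower of 8249 genes, and 619 members were shared. Without Tnnt2 in the score 15 of 8094 genes were higher, and without Mgp 11 of 7999. Leaving out a hashtag sample gave 50 to 61 higher and 88 to 108 lower genes, with 6390 to 7266 genes tested. The mean share of members was then 24.8 to 28.5%, beside the 25% that the rule fixes over all smooth muscle cells. Fold, pseudocount and left-out samples make the rule itself stricter or looser; for the other settings the cause was not tested. Among 990 values of the 45 named genes that met the rule or are in the score, 1 changed sign: Ankrd1 with a caller on hashtag ratios, at -0.34. These genes define the score or were chosen for agreement of all 3 samples, so this count cannot measure how stable their direction is. Of the other 90 named genes, 24 changed sign under at least 1 alternative (43 of 1980 values). That caller gave shares of members of 25.8, 21.6 and 25.7%. Limits of 5% mitochondrial UMIs (35 cells) and of 0 haemoglobin UMIs (136 cells) left hashtag samples without cells at an end and gave no value. Every ratio is paired within a hashtag sample; no test, paired or not, was made, since the cells were chosen on the same measurements. Many named genes rest on few UMIs (1 for Phex and 13 for Piezo2 in members with a single hashtag), and depth limits the precision of their ratios.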

Other observations

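Genes of the circadian clock, looked at as a group after Dbp, Npas2, Per3 and Bhlhe40 were seen among the genes that met the rule, were measured at both ends of the score. Of 18 looked at, 15 had enough UMIs. Of these, 1 met the rule upward and 3 downward, beside 0.295% and 0.638% of all tested genes. The genes that met it are the 4 that led to the group, so these calls are built in. In all 3 hashtag samples 4 were higher and 8 lower, beside 15.2% and 18.2% of all tested genes. Npas2 is among the 4, and Dbp, Per3 and Bhlhe40 are among the 8, so these counts are built in to that extent. Dbp, a clock output factor, had 12.8, 32.3 and 26.6 CPM in members and 84.3, 66.2 and 63.6 CPM in low-score cells, and Per3, a repressor of the clock, had 16.7, 16.1 and 9.37 CPM in members and 46.5, 31.0 and 24.99 CPM in low-score cells. Bhlhe40, another repressor, was at -1.03 ± 0.37 (log2, SD, n = 3). The activators Npas2 and Arntl were at 0.82 ± 0.06 and 0.62 ± 0.38, although Npas2 was at 0.20 in cells without a single hashtag, where Dbp was at -1.33 and Arntl at 0.44, and Arntl did not meet the rule. Nr1d1, a repressor of Arntl, was at -0.29 ± 0.18 and did not meet the rule. Hlf was at 0.06 ± 0.11, Cry2 at -0.21 ± 0.28 and Tef at -0.36 ± 0.86. The group was chosen after its values were seen.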
